A study of Mus musculus with 98 samples.

Results

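The 10 genes described here encode the elastic fibre and the microfibrils it is built on: elastin (Eln), the fibrillins Fbn1 and Fbn2, the microfibril-associated proteins Mfap2, Mfap4 and Mfap5, the fibulins Fbln1, Fbln2 and Fbln5, and the latent TGF-beta binding protein Ltbp2. They were taken by name, from a list made with earlier results of these data known. All 10 were present among the 22231 genes of a single-cell age series and the 20760 genes of a newborn single-cell data set. They were also present among the 39179 gene IDs of bulk RNA-seq. They were followed over the 19 subtypes of the nonepithelial thymic stroma (NETS) that the authors labelled, over age, over sorted populations and between genotypes.

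The age series held live Ter119-CD45-EpCAM- thymic cells of wild-type C57BL/6 mice in 8 libraries of the 10x Chromium 3' assay, which counts captured mRNA molecules by their barcodes (unique molecular identifiers, UMIs): 1 library at E12.5 and 1 at E13.5 (embryonic days), and 2 each at E16.5, at birth (P0) and at 4 weeks (W4). The newborn data set held Ter119-CD45- cells, fixed with RNAprotect before capture, at P0, in 3 libraries of Tbx1+/- Crkl+/- mice (a LacZ allele of Tbx1 and a germline null allele of Crkl) and 3 of WT littermates. In bulk, ultra-low input RNA-seq was run on CD45- populations sorted from WT mice at P0 and W4, 6 libraries per population and age: CD31+ endothelium, Ly51+gp38- mural cells, gp38+CD26+ fibroblasts (a capsular phenotype), gp38+CD26- fibroblasts (a medullary phenotype), and the cortical and medullary epithelium (cTEC and mTEC). gp38 is podoplanin and CD26 is dipeptidyl peptidase-4. By the paper's projection onto its subtypes, the gp38+CD26- population held mainly medullary fibroblasts, and also capsular fibroblasts of the subtype CapFb1. Subtype names combine CapFb (capsular fibroblasts), MedFb (medullary fibroblasts), Pr (proliferating fibroblasts), Pc (pericytes), VSM (vascular smooth muscle), NC (neural crest-derived cells), EnA, EnC and EnVL (arterial, capillary, and venous or lymphatic endothelium) and Mes (mesothelium).

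Elastic fibres give arteries, lung and skin their recoil. Cells secrete soluble tropoelastin, which is laid onto a scaffold of fibrillin microfibrils and cross-linked by lysyl oxidases into an insoluble core. Fibulin-5 and fibulin-4 bring tropoelastin and the cross-linking enzymes together on the microfibril, microfibril-associated glycoproteins bind fibrillin, and the latent TGF-beta binding proteins, which resemble fibrillins, dock growth factor complexes on the same scaffold. In the thymus such fibres lie in the capsule, in the septa and around vessels.

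In the GENCODE M21 annotation of mouse build GRCm38.p6, Eln lies at chr5:134702593-134747323, Fbn1 at chr2:125300594-125507993, Mfap2 at chr4:141010418-141015984, Mfap4 at chr11:61485431-61488900, Mfap5 at chr6:122505845-122529290, Fbln1 at chr15:85205949-85286535, Fbln2 at chr6:91212455-91272540, Fbln5 at chr12:101746565-101819055 and Ltbp2 at chr12:84783212-84876532. Exons of 5 of the genes overlap exons of a gene on the other strand: Eln with Gm30003, Fbn1 with Gm9913, Fbn2 with Gm26507, Mfap4 with Mapk7 and Ltbp2 with D030025P21Rik. If strand was not used in counting, reads of the 2 genes of a pair cannot be told apart.

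The sequences upstream of 2 genes with contrasting patterns are shown, Mfap2, which fell from P0 to W4 in every subtype tested, and Fbln5, whose level was set apart in arterial endothelium at E16.5, P0 and W4. RefSeq promoter windows were held for 6 of the genes, and of these the 2 sequences were cut to 244 bases that overlap 0 annotated exons of the build named above. Each is printed 5' to 3' on the strand of its gene, with GC boxes (GGGCGG on either strand) in capitals.
Mfap2, chr4:141010174-141010417, plus strand: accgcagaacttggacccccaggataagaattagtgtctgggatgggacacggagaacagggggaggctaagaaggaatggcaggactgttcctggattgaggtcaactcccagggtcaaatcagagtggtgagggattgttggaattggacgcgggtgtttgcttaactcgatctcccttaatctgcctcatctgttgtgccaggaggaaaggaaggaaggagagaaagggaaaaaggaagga
Fbln5, chr12:101819126-101819369, minus strand: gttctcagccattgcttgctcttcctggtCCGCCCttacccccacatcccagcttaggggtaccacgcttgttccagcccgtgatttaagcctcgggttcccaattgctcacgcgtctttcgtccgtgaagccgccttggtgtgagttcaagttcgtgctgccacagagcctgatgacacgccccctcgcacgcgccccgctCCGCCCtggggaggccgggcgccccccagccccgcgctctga
The Fbln5 window held 2 GC boxes and the Mfap2 window 0, and neither held the motif of the factor AP-1 (TGANTCA) or that of the TATA box (TATAAA). Among 32851 RefSeq promoters cut to the same window, 31.9% held GGGCGG, 6.66% TGANTCA and 12.2% TATAAA. These matches describe letters in a window, not bound sites.

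Depth differed between the data sets. The age series held 36208 labelled cells (1997 to 6587 per library) with median depths of 10005 to 14031 UMIs per cell, and the newborn data 21451 cells (1687 to 5661 per library) with medians of 2391 to 4686 UMIs. Of the 84 bulk libraries, 83 held 5785352 to 15852166 gene counts and 1, W4 gp38+CD26+ replicate 2, held 25702 and was left out. The 10 genes were well covered except Ltbp2: 3431 Ltbp2 UMIs were counted in the whole age series, against 65620 of Fbln5, the next lowest. Cell barcodes shared by libraries made up 0.430% of the barcodes in the age series and 0.206% in the newborn data. By the study's account thymi of 2 litters were pooled at E12.5 and at E13.5, later ages drew on 2 thymi each and the newborn data on 3 mice per genotype. The labels did not tie libraries to mice, so the p-values measure the spread between these libraries. Levels are counts per 1000000 counts (CPM): the UMIs of all cells of a subtype in a library were added up, where the library held at least 5 such cells, and in bulk the gene counts of a library were used.

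The authors clustered the subtypes from these same counts. The paper lists Fbln5 among the top genes of EnA, Fbn1 and Mfap5 of CapFb4, Mfap4 of CapFb2a and Mfap5 of CapFb2b. Levels between subtypes, and whether their libraries overlap, are therefore a description and not a test. The subtype labels were checked against defining markers. Summed over each list, the markers of smooth muscle, neural crest, proliferation and mesothelium were highest in the subtypes of those names, and the endothelial ones in EnVL and EnA. The capsular markers Pi16 and Dpp4 ranked CapFb4 and CapFb2b first, but CapFb2a 8th of 19 by its median (58.8 CPM), below EnA (79.04 CPM) and Mes (94.4 CPM), and CapFb1b 10th (32.95 CPM). CapFb2a, whose Eln, Mfap4 and Fbln5 levels are described below, ranked 3rd of 19 for the smooth muscle markers Myh11, Acta2, Tagln and Cnn1, after VSM and Pc. These summed to 1764 and 1289 CPM in its P0 libraries (median 1314 CPM over 8 libraries, against 15007 CPM in VSM), and their part in its levels was not tested. The medullary markers Ccl19 and Col15a1 ranked MedFb2b, MedFb1b and MedFb1a first, but MedFb2a 10th (median 296 CPM), below CapFb1b (516 CPM), so these markers did not set CapFb1b, CapFb2a and MedFb2a apart under their names. The pericyte markers Kcnj8, Rgs5, Abcc9 and Cspg4 were as high in VSM (median 4486 CPM over 8 libraries) as in Pc (3793 CPM), so these markers did not separate the mural subtypes. Haemoglobin transcripts were highest in EnA (median 4845 CPM).

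Replicate 1 of the P0 age-series libraries stood apart in several of these genes. Over the 18 subtypes with at least 20 cells in both P0 libraries, Eln was higher in replicate 1 in 18, with a median ratio of 2.80, Mfap4 in 18 with a median ratio of 3.30, and Ltbp2 in 18 with a median ratio of 5.67. Fbln5 was higher there in 14 subtypes (median ratio 1.64), Mfap5 in 16 (1.34) and Fbln1 in 15 (1.19), whereas Fbn1, Fbn2, Mfap2 and Fbln2 had median ratios of 1.01, 0.940, 1.04 and 0.973. The median ratio over 6769 genes was 1.005. Mesothelial cells numbered 228 in replicate 1 and 7 in replicate 2, and the 4 fibroblast markers Pdgfra, Pdpn, Col1a1 and Dcn summed to 1979 CPM in its EnA cells against 65.4 CPM in those of replicate 2. The part of either difference in the values was not tested, and the counts and fold changes below that use P0 are given with replicate 1 and without it. Without it, the single P0 library is assumed to vary like the other ages.

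**Figure D1:**
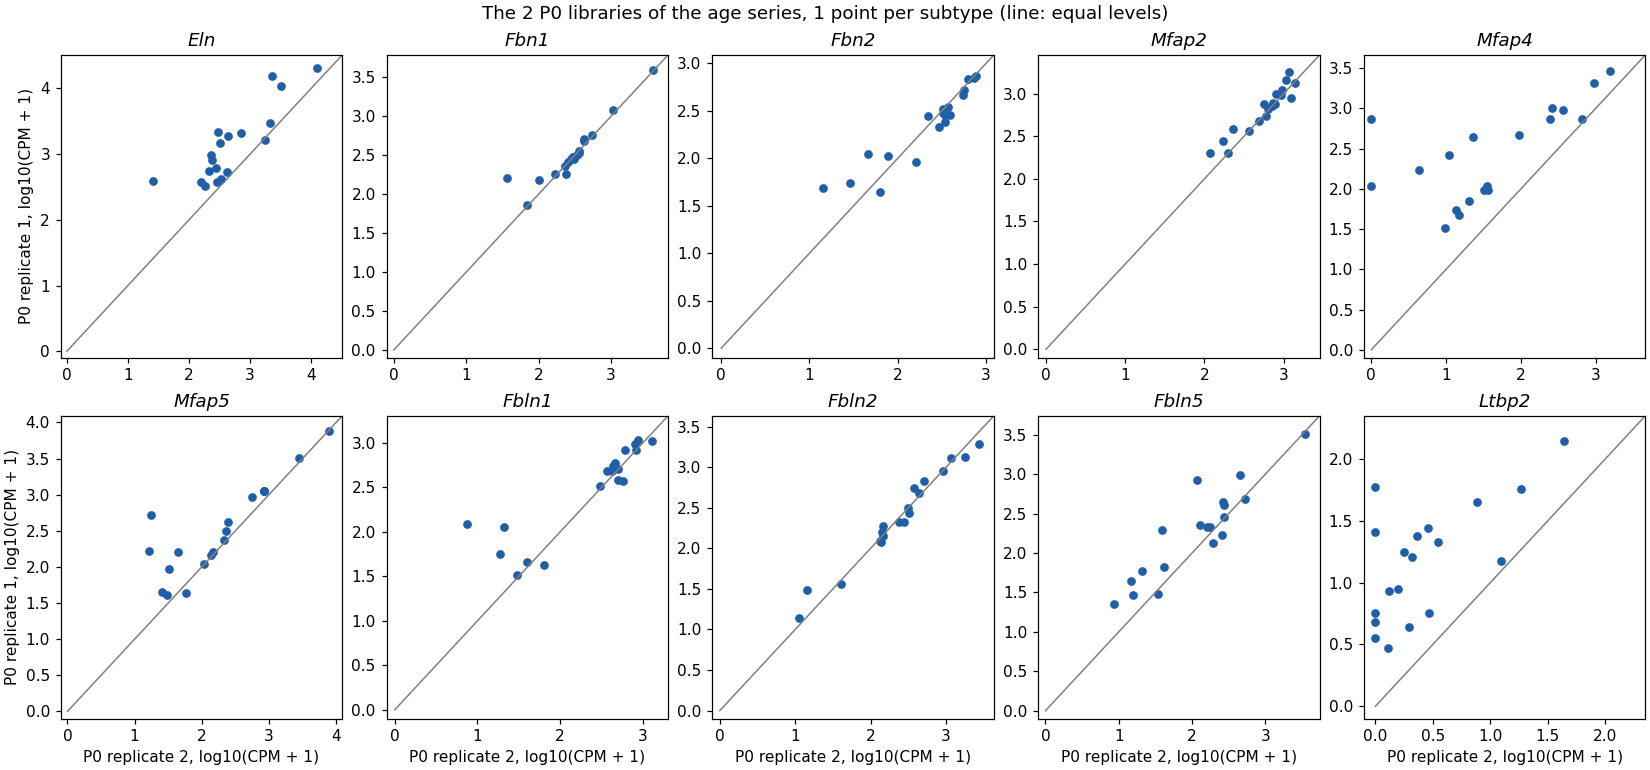
Levels of the 10 genes in the 2 P0 libraries of the age series on log10(CPM + 1) axes, replicate 2 on the x axis and replicate 1 on the y axis, with 1 point for each of the 19 subtypes and a line where both are equal. All points of Mfap4 and Ltbp2 and all points of Eln except Mes (1661 CPM in replicate 1 and 1757 in replicate 2, in which it counted 7 cells) lie above the line, while those of Fbn1, Mfap2 and Fbln2 lie on both sides of it, with ratios of replicate 1 to replicate 2 from 0.761 to 4.48 for Fbn1, 0.916 to 1.72 for Mfap2 and 0.704 to 2.17 for Fbln2 in the 18 subtypes with at least 20 cells in each library.

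The tests over age used edgeR's quasi-likelihood model on UMI sums per library and subtype, with p adjusted by Benjamini and Hochberg over all genes of the subtype and called under 0.05. From P0 to W4, 17 subtypes had at least 20 cells in every library of both ages, which gave 170 pairs of a gene and a subtype. Of these 120 were called, 55 higher and 65 lower at W4, where 27.6% of all 201843 gene and subtype pairs were called (13.7% higher and 13.9% lower). Without P0 replicate 1, 75 pairs were higher and 52 lower, and 55 and 52 pairs were called in the same direction in both fits. From E16.5 to P0, 75 pairs rose and 10 fell, where 12.6% of all pairs were called (6.63% higher and 5.99% lower), and without replicate 1 the counts were 59 and 18, with 57 and 7 in both fits. These calls also leaned on the E16.5 libraries: 50% of the 170 pairs were called with both, and 27.6% and 30% with 1 or the other left out. Over all ages at which a subtype had a library of at least 20 cells, which were not all 5 in every subtype, 91.8% of the 170 pairs changed. Of all pairs 55.3% did.

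**Figure D2:**
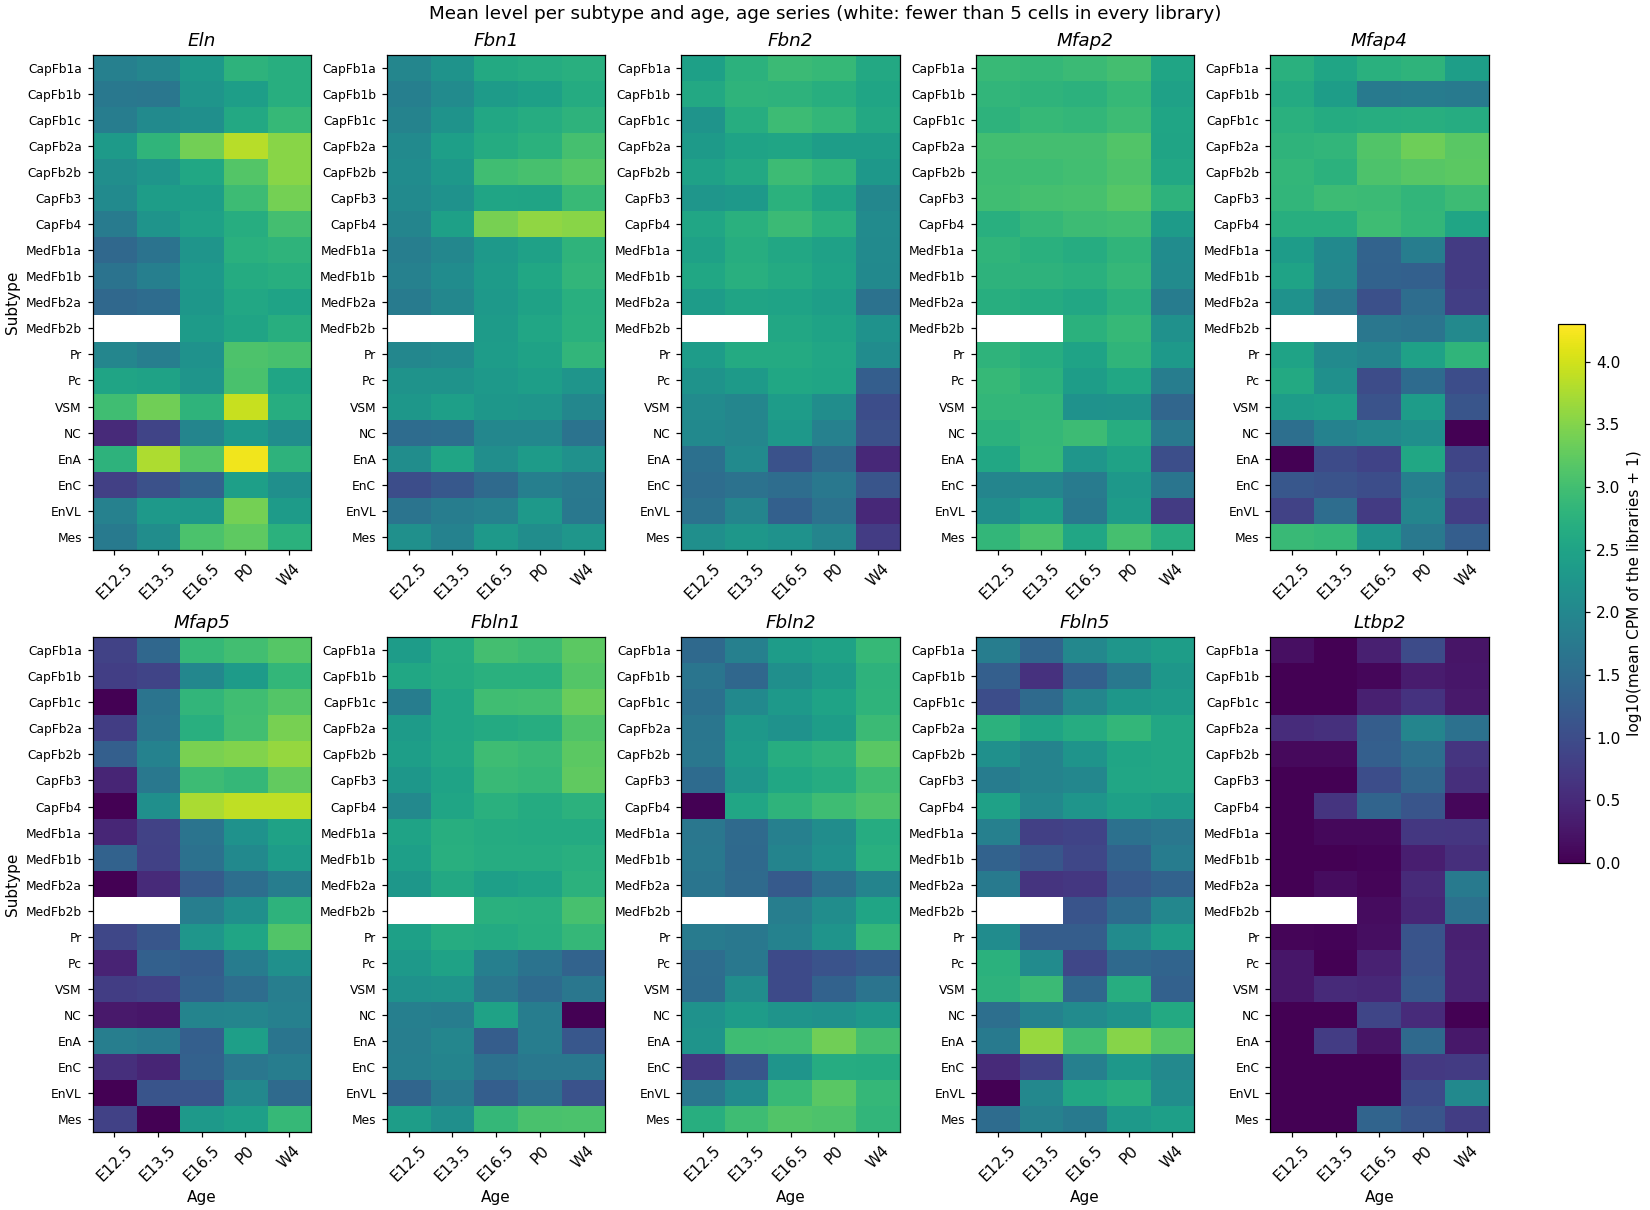
Mean level of each gene as log10(mean CPM + 1), in colour, for the 19 subtypes (rows) at the 5 ages (columns), 1 panel per gene. Eln is brightest in EnA, VSM and CapFb2a at P0 (16370, 8842 and 6960 CPM), Fbn1 and Mfap5 in CapFb4, and Ltbp2 is dark in most subtypes.

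In the age series Eln, the only elastin gene, was a gene of arterial endothelium, smooth muscle and CapFb2a fibroblasts around birth and of capsular fibroblasts at W4. In EnA it read 606 CPM at E12.5, 5929 at E13.5, 653 and 2164 at E16.5, 20447 and 12292 at P0, and 795 and 405 at W4. The 2 P0 libraries lay above all others, and the W4 libraries were lower by 4.87 on the log2 scale (log2 fold change -4.87, SE 0.42, edgeR adjusted p = 2.37e-06), with -4.47 without P0 replicate 1. VSM cells read 944 CPM at E12.5, 2358 at E13.5, 719 and 518 at E16.5, 15421 and 2263 at P0, and 372 and 590 at W4, so the P0 mean rested on 1 library. The fall to W4 was called with that library (log2 fold change -4.27, SE 0.78, edgeR adjusted p = 0.00745) and without it (-2.28). In EnVL, with 2938 and 2131 CPM at P0 and 230 and 223 at W4, the log2 fold change was -3.52 (SE 0.27, edgeR adjusted p = 1.44e-05), and -3.33 without P0 replicate 1.

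Some fibroblast subtypes changed in the opposite direction. In CapFb2b, Eln read 419 and 316 CPM at E16.5, 2130 and 712 at P0, and 3313 and 3465 at W4, above both P0 libraries. The rise from P0 to W4 was 1.36 on the log2 scale (SE 0.34, edgeR adjusted p = 0.0109) and 2.36 without P0 replicate 1. CapFb2a, which ranked first at E16.5 with 2753 and 2162 CPM, read 10752 and 3167 at P0 and 2643 and 4120 at W4, and its P0 and W4 libraries overlapped. Its E16.5 libraries overlapped those of EnA, which ranked first with E16.5 replicate 1 left out. At P0 the libraries of EnA and VSM, the subtypes ranked first and second, overlapped as well. At W4 CapFb2b, CapFb2a and CapFb3 held the top 3 ranks in that order. The libraries of CapFb2a overlapped those of both others, while CapFb3, with 2715 and 2282 CPM, lay below CapFb2b, and EnA stood at 599.9 CPM on average. In all, Eln rose from P0 to W4 in 5 subtypes and fell in 5, and without P0 replicate 1 it rose in 10 and fell in 4. The 4 that fell in both fits were EnA, EnVL, VSM and Pc. In the newborn WT libraries, which were prepared in another way, Eln read 745, 311 and 925 CPM in EnA, 869, 1301 and 761 CPM in VSM and 2856, 1606 and 3387 CPM in CapFb2a. There CapFb2a lay above EnA and VSM in each library, so the first rank of EnA at P0 was not seen. EnA counted 19, 11 and 41 cells in these libraries, and no test was made between the data sets.

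Smooth muscle markers were looked at in the endothelial subtypes because smooth muscle makes arterial elastin. In EnA cells Myh11, Acta2, Tagln and Cnn1 summed to 272 and 874 CPM in the P0 libraries, where VSM cells held 19272 and 16788 CPM, while the 5 endothelial markers Pecam1, Cdh5, Kdr, Emcn and Tie1 summed to 2577 and 2719 CPM in EnA. EnA counted 29 and 31 cells in the P0 libraries and 79 and 71 at W4, and haemoglobin transcripts in its P0 libraries summed to 109 and 20410 CPM. The part of these transcripts in the Eln levels was not tested.

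Fbn1, the main fibrillin of postnatal microfibrils, was highest in CapFb4 at E16.5, P0 and W4, at 2554 and 2693 CPM, 3872 and 3837 CPM, and 3126 and 3648 CPM. Its libraries did not overlap those of CapFb2b, which came second with 983 and 943 CPM, 1191 and 1071 CPM, and 1542 and 1442 CPM. CapFb4 read 89.5 CPM at E12.5 and 280.1 at E13.5. From P0 to W4 Fbn1 rose in 10 of 17 subtypes and fell in 4, and without P0 replicate 1 in 11 and 3. The medullary fibroblasts all rose: MedFb1a went from 284 and 302 to 607 and 652 CPM (log2 fold change 1.01, SE 0.10, edgeR adjusted p = 2.4e-07, and 0.95 without P0 replicate 1), and the 4 MedFb subtypes were also called without that library. EnVL, Pc and VSM fell in both fits, and EnA was called with both P0 libraries (log2 fold change -0.77, edgeR adjusted p = 0.0289) but not without P0 replicate 1 (-0.78, edgeR adjusted p = 0.0817). EnVL went from 182.1 and 239.7 to 63.7 and 41.0 CPM (log2 fold change -2.02, SE 0.27, edgeR adjusted p = 0.00047, and -2.26 without P0 replicate 1). In CapFb4 the change of -0.09 (SE 0.06, and -0.08 without that library) did not pass.

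Fbn2, the fibrillin best known from embryonic tissue and in mice encoded on chromosome 18, followed the opposite course in fibroblasts. CapFb1c ranked first at E16.5 and W4, where its libraries overlapped those of the next subtype, CapFb2b and CapFb1a, and with 1 E16.5 library left out CapFb4 or CapFb2b came first at that age. At P0 CapFb1a ranked first. CapFb1c read 897 and 887 CPM at E16.5, 694 and 729 at P0 and 377 and 416 at W4. From P0 to W4 it fell in 16 of 17 subtypes, and in 14 without P0 replicate 1. Pericytes went from 282 and 389 CPM at P0 to 14.4 and 22.8 at W4 (log2 fold change -4.40, SE 0.21, edgeR adjusted p = 4.5e-08, and -4.63 without P0 replicate 1), MedFb2a from 213 and 291 to 40.7 and 41.2 CPM (-2.64, SE 0.14, edgeR adjusted p = 1e-08, and -2.85) and CapFb4 from 523 and 556 to 108.3 and 125.9 CPM (-2.10, SE 0.10, edgeR adjusted p = 2.98e-14, and -2.14). CapFb2a, with 280.1 and 220.2 CPM at P0 and 249.6 and 242.9 at W4, was the 1 subtype not called (log2 fold change -0.01, SE 0.14, and 0.19 without that library). Already from E16.5 to P0, 7 subtypes were called lower and 0 higher, and without P0 replicate 1 these counts were 6 and 0, with 4 of the falls called in both fits.

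**Figure D3:**
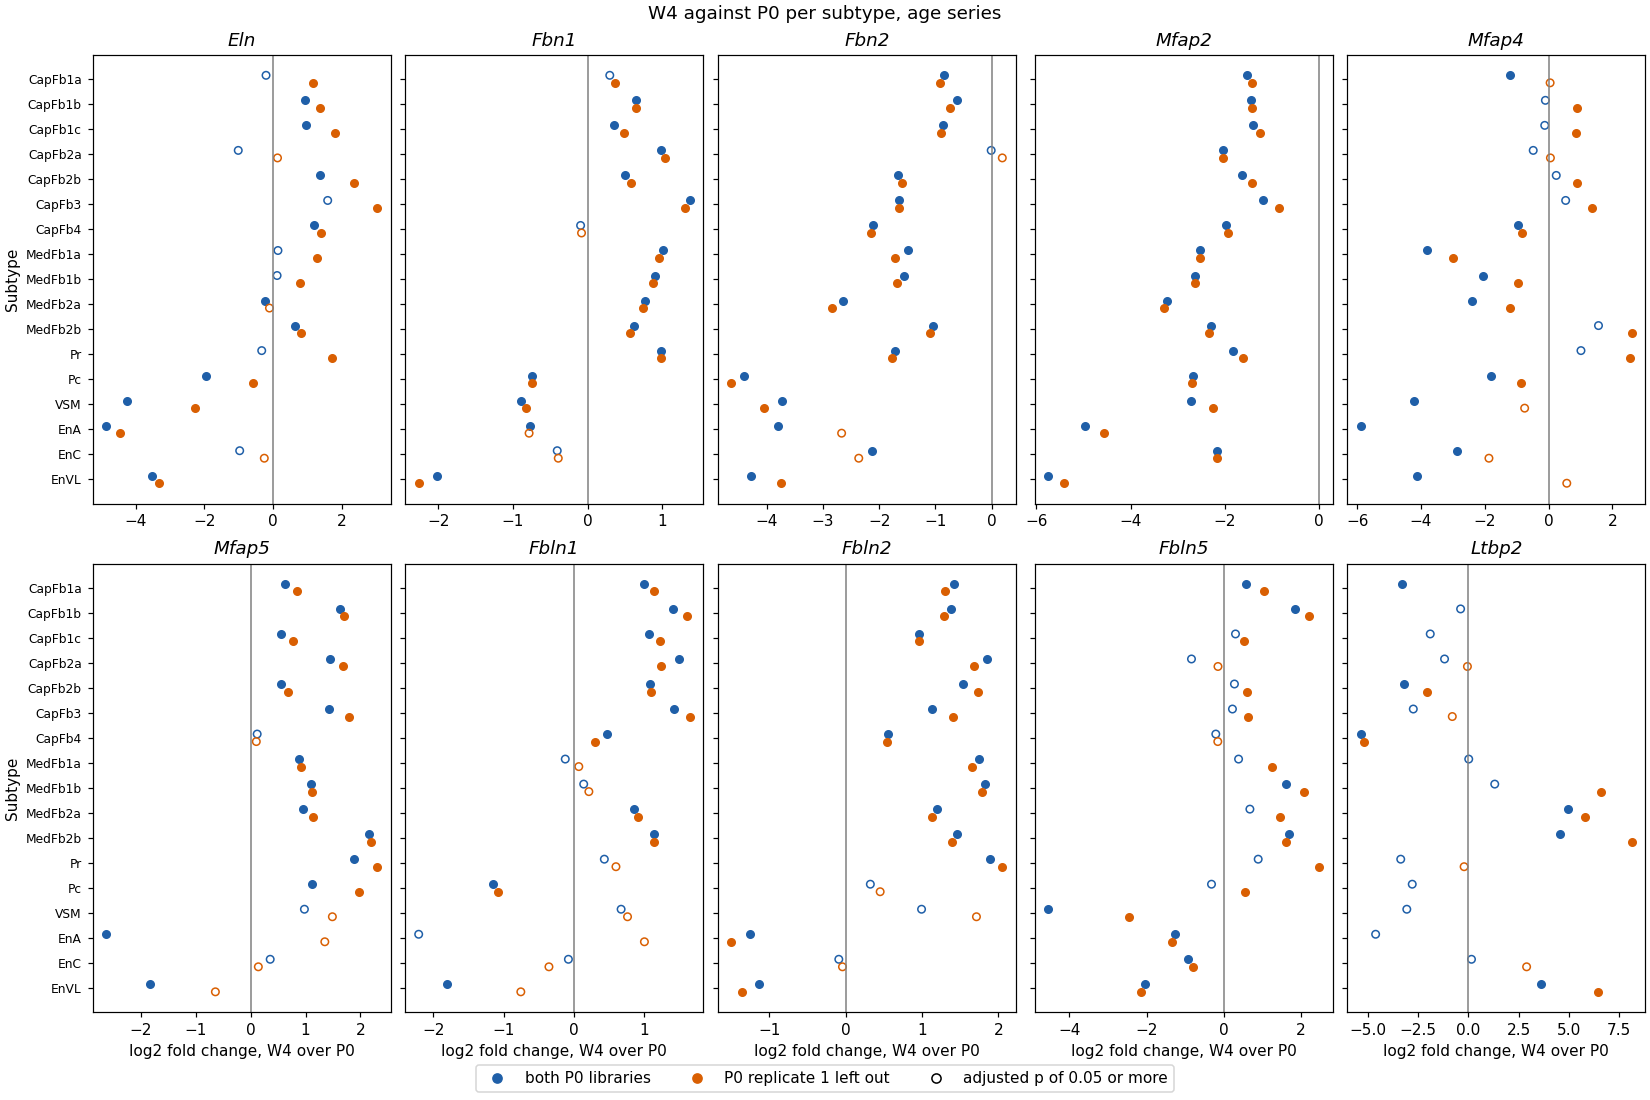
Log2 fold change of each gene from P0 to W4 (x axis) in the 17 subtypes tested (y axis), with both P0 libraries (blue) and with P0 replicate 1 left out (orange), filled where the edgeR adjusted p was under 0.05. All filled points of Fbn2 and all points of Mfap2 lie left of 0 in both fits, while points of Eln and Mfap4 change side in several subtypes.

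Mfap2, which encodes the glycoprotein MAGP1 that binds fibrillin, was the 1 gene of the 10 called in the same direction in all 17 subtypes between P0 and W4. It was lower at W4 in each, in both fits, with log2 fold changes of -1.19 to -5.75 and a median of -2.16 with both P0 libraries. CapFb3, its first-ranked subtype at W4, went from 1800 and 1167 CPM to 597 and 596 (log2 fold change -1.19, SE 0.18, edgeR adjusted p = 0.00306, and -0.86 without P0 replicate 1). MedFb2a went from 551 and 601 to 60.9 and 62.7 CPM (-3.23, SE 0.09, edgeR adjusted p = 4.42e-11, and -3.30) and EnVL from 277.1 and 171.5 to 1.87 and 7.24 CPM (-5.75, SE 0.39, edgeR adjusted p = 6.53e-06, and -5.40). In each of these subtypes both W4 libraries lay below both P0 libraries. Before birth Mfap2 was broad, at 375 CPM or more in every subtype with a value at E12.5 except EnC and EnVL, and it was called higher at P0 than at E16.5 in 9 subtypes, and in 8 without P0 replicate 1.

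Mfap4, an integrin-binding protein found along elastic fibres, and Mfap5, which encodes MAGP2, the relative of Mfap2, shared a capsular pattern from E16.5 on but not their course. Mfap4 was highest in CapFb2a (1320 and 1405 CPM at E16.5, 2924 and 1553 at P0, 1368 and 1785 at W4) and in CapFb2b (1350 and 1128, 2069 and 951, 1758 and 1557), and the libraries of these subtypes overlapped at each of the 3 ages. Medullary fibroblasts held little of it from E16.5 on: MedFb1a read 241 CPM at E12.5, 108.4 at E13.5, 24.1 and 20.9 at E16.5, 95.3 and 35.1 at P0 and 1.94 and 7.14 at W4. The last step was called with both P0 libraries (log2 fold change -3.81, SE 0.57, edgeR adjusted p = 4.45e-05) and without replicate 1 (-3.01). Over all subtypes Mfap4 fell from P0 to W4 in 10 and rose in 0, and without replicate 1 it fell in 5 and rose in 6, so its direction in CapFb1a, CapFb1b and CapFb1c depended on that library. In CapFb4, from 745 and 647 to 302 and 369 CPM, it fell in both fits (log2 fold change -0.96, SE 0.09, edgeR adjusted p = 2.54e-08, and -0.84 without replicate 1). EnA cells read 729 CPM of Mfap4 in replicate 1 and 0 in replicate 2, where a count of 0 allows up to 9.82 CPM.

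Mfap5 read 18.7 CPM in CapFb2b at E12.5 and 0 in the 6 CapFb4 cells of that library, where a count of 0 allows up to 44.7 CPM, and its later levels in the capsule were far higher. CapFb4 read 138 CPM at E13.5, 5638 and 5657 at E16.5, 7570 and 7803 at P0, and 7207 and 8466 at W4, and no other subtype came within its range from E16.5 on. The second, CapFb2b, read 2749 and 2662, 3248 and 2787, and 4066 and 4202 CPM. From P0 to W4 the gene rose in 12 subtypes, in both fits. CapFb1b went from 237 and 212 to 674 and 732 CPM (log2 fold change 1.63, SE 0.10, edgeR adjusted p = 1.3e-07, and 1.70 without P0 replicate 1) and CapFb2a from 1136 and 840.0 to 2296 and 2988 CPM (1.44, SE 0.16, edgeR adjusted p = 0.000188, and 1.69). In CapFb4 the change of 0.12 (SE 0.05, and 0.10 without that library) did not pass. The 2 falls, in EnA and EnVL, were not called without replicate 1, in whose EnA cells Mfap5 read 525.6 CPM against 16.4 in replicate 2.

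Fbln1, a basement membrane and matrix fibulin, rose from P0 to W4 in the capsular subtypes of the age series. CapFb1c, first at W4, went from 1089 and 876 CPM to 2045 and 2112 (log2 fold change 1.06, SE 0.11, edgeR adjusted p = 1.33e-06, and 1.22 without P0 replicate 1), and CapFb1b from 599 and 460 to 1354 and 1495 (1.41, SE 0.11, edgeR adjusted p = 6.05e-07, and 1.60). All 7 capsular subtypes rose, 9 of 17 subtypes in all, and the 9 were also called without P0 replicate 1. MedFb1a and MedFb1b, in which Fbln1 had stood at 491 and 516 CPM at E13.5, were not called. With both P0 libraries Fbln1 fell in 2 subtypes, 1 of them endothelial. The other was pericytes, where the level went from 44.95 and 38.71 to 15.2 and 28.8 CPM (log2 fold change -1.15, SE 0.21, edgeR adjusted p = 0.00147, and -1.08 without P0 replicate 1). Epithelial cells of the newborn data, which were prepared in another way, held 43.02 to 89.5 CPM of Fbln1. The W4 pericyte levels of Fbn2 given above also lay below the 39.0 to 110 CPM of Fbn2 in those epithelial cells. Whether pericyte levels of this order reflect expression was not tested for either gene. Mes cells were as high in Fbln1 as the capsule at P0, with 1046 and 1276 CPM, but replicate 2 held 7 of these cells.

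Fbln2, which binds fibrillin and elastin and marks developing vessels, was high in endothelium, in mesothelium and in some capsular fibroblasts, and rose later in fibroblasts. CapFb4 averaged 618 CPM at E16.5 and 910 at P0. At P0 Fbln2 also averaged 1235 CPM in Mes, of which replicate 2 held 7 cells. In EnA it read 839 and 1047 CPM at E16.5, 1925 and 2735 at P0 and 1132 and 963 at W4, where the log2 fold change from P0 was -1.26 (SE 0.19, edgeR adjusted p = 0.000566, and -1.50 without P0 replicate 1), and EnVL fell too (-1.13, SE 0.18, edgeR adjusted p = 0.00148, and -1.36). At the same time it rose in 12 subtypes, among them all 7 CapFb and all 4 MedFb subtypes, and these calls were the same without P0 replicate 1. MedFb1b went from 142 and 147 to 495 and 549 CPM (log2 fold change 1.83, SE 0.09, edgeR adjusted p = 1.45e-09, and 1.79 without P0 replicate 1). CapFb2b went from 670 and 516 to 1601 and 1583 CPM (1.53, SE 0.12, edgeR adjusted p = 3.18e-06, and 1.73) and was then above EnA, which had ranked first at P0. EnC, at 481 and 435 CPM at P0 and 456 and 438 at W4, did not pass (-0.09, and -0.04 without that library).

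Fbln5, the fibulin that carries tropoelastin onto microfibrils, was set apart in arterial endothelium, a cluster for which the paper lists it as a top gene. EnA read 56.2 CPM at E12.5, 4365 at E13.5, 770 and 1202 at E16.5, 3226 and 3471 at P0, and 1459 and 1514 at W4, and from E16.5 on its libraries did not overlap those of the next subtype. That subtype was CapFb2a at E16.5 (393 and 531 CPM) and at P0 (967 and 445 CPM), and NC at W4, where 7 cells per library gave 538 and 289 CPM. From P0 to W4 all 3 endothelial subtypes fell, with log2 fold changes of -1.27 in EnA (SE 0.18, edgeR adjusted p = 0.000317), -2.05 in EnVL (SE 0.15, edgeR adjusted p = 1.04e-05) and -0.93 in EnC, and they also did so without P0 replicate 1, by -1.34, -2.15 and -0.80. CapFb1b rose from 64.9 and 40.0 to 190.6 and 184.2 CPM (log2 fold change 1.84, SE 0.17, edgeR adjusted p = 2.66e-06, and 2.20 without P0 replicate 1). In all 4 subtypes rose and 4 fell, and without replicate 1 these counts were 11 and 4.

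Ltbp2, which binds fibrillin but, unlike its relatives, does not bind latent TGF-beta, was scarce and changed place. At E16.5 it was found in CapFb4 (23.9994 and 23.5269 CPM), CapFb2b and CapFb2a, at P0 CapFb2a ranked first (140 and 42.7 CPM), and at W4 it was found in EnVL (110 and 111 CPM), MedFb2a (55.2 and 58.3 CPM), MedFb2b (53.1 and 26.7 CPM) and CapFb2a (35.2 and 43.1 CPM). MedFb2a had read 3.41 and 0.977 CPM at P0 (log2 fold change 4.95, SE 0.29, edgeR adjusted p = 2.63e-08, and 5.81 without P0 replicate 1). EnVL had read 15.1 and 1.10 CPM (3.60, SE 0.46, edgeR adjusted p = 0.000587), and the lower of these levels was 1 UMI, so no fold is given without replicate 1. MedFb2b had held 3 and 0 UMIs at P0, where a count of 0 allows up to 2.39 CPM, against 25 and 20 UMIs at W4. The ratio of its summed levels, W4 over P0, was 25.1 (95% exact interval 8.07 to 126, which covers counting error only), and edgeR called it (adjusted p = 0.000104). CapFb4 went the other way, from 35 and 23 UMIs at P0 (13.9 and 11.4 CPM) to 0 and 1 at W4, where a count of 0 allows up to 1.84 CPM. Its summed level at P0 was 52.8 times that at W4 (95% exact interval 9.10 to 2120), and this too was called by edgeR (adjusted p = 6.53e-07). These 4 calls were also made without P0 replicate 1. In 7 of the 17 subtypes Ltbp2 had too few counts to be tested without that library. With both P0 libraries it was called higher at W4 in 3 of the 17 and lower in 3, the latter all capsular fibroblasts.

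Likeness between profiles over the 19 subtypes was described by Pearson's r of log2(CPM + 1), averaged per subtype, without a test, since the 19 points share libraries and the subtypes were clustered from the same counts. Among the 10 genes the most alike were Mfap4 and Mfap5 (r = 0.90), Mfap2 and Fbln1 (0.86), Fbn2 and Fbln1 (0.84) and Fbn1 and Mfap5 (0.84), and the least alike were Fbn2 and Fbln5 (-0.30). Over all genes with a mean of at least 20 CPM, the most like Fbln1 was Dcn (0.98), the most like Fbn1 Fstl1 (0.96), the most like Fbn2 Camk2n1 (0.97), the most like Mfap2 Mmp16 (0.97), the most like Mfap4 Angptl1 (0.96) and the most like Mfap5 Tnxb (0.94). Eln had no close match: the 3 most like it were Smpd1 (0.78), Palld (0.75) and Bcl9l (0.75), and for Ltbp2 the closest was Snx7 (0.72). Fbln2 and Fbln5 came closest to Cebpzos (0.89) and Tanc2 (0.87).

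Other genes of elastic fibre assembly were counted from a list of 22. Over the subtypes tested they gave 322 pairs, of which 120 rose and 45 fell from P0 to W4 (51.2% called, where 27.6% of all pairs were), and 86 rose and 15 fell from E16.5 to P0 (31.4% called, where 12.6% of all pairs were). Without P0 replicate 1, 318 pairs could be tested, of which 50.6% were called from P0 to W4, 36 of them lower, and 91 rose and 21 fell from E16.5 to P0. The counts that follow used both P0 libraries, with those without replicate 1 given where they differ by over 1.5 times. Of the cross-linking enzymes, Loxl1, the lysyl oxidase that Fbln5 binds, rose in 13 of 17 subtypes from E16.5 to P0 (median log2 fold change 1.24) and in 9 from P0 to W4, falling in 1. Loxl2 rose in 10 and fell in 3 of 17 from P0 to W4, Loxl3 rose in 10 of 15, and Lox rose in 7 and fell in 1 of 17. The remaining fibulins split: Efemp1 (fibulin-3) rose in 10 of 17 subtypes and Fbln7 in 8 of 13, whereas Efemp2 (fibulin-4), needed for elastin cross-linking, fell in 14 of 17 (median -0.46). Of the latent TGF-beta binding proteins, Ltbp4 rose in 14 of 17 subtypes (median 1.496), Ltbp1 rose in 12 and fell in 1 (median 1.51), and Ltbp3 rose in 6 and fell in 3 (median 0.32). Emilin3 fell in 4 of 6 (median -3.80), and in 1 of 6 without P0 replicate 1, and Emilin1 rose in 1 (2 without that library) and fell in 6 of 17.

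Bulk libraries gave the same genes in whole sorted populations, with the limit that fewer cells of a kind and less RNA per cell cannot be told apart there. By edgeR, each population was set against the average of the remaining 3. Library numbers in the titles run alike from population to population, and the labels do not say whether the same thymi were sorted into several. Such a pairing was not modelled in the tests between populations or in the interaction below, and its part was not tested. The gp38+CD26+ fibroblasts carried most of the genes. At P0, 7 of the 10 were higher and 0 lower in them (17.2% of 13848 genes called, 10.7% higher and 6.57% lower), and at W4 9 were higher and 1 lower (21.4% of 14087 genes called, 13.4% higher and 8.04% lower). In gp38+CD26- cells 4 were higher and 1 lower at P0 (10.8% called, 8.28% higher and 2.47% lower) and 6 and 1 at W4 (16.9% called, 12.4% higher and 4.53% lower). CD31+ cells had 2 higher and 7 lower at P0 (31.8% called) and 3 and 7 at W4 (32.2% called), and Ly51+gp38- cells 1 higher and 4 lower at P0 (13.4% called, 8.57% higher and 4.85% lower) and 0 and 4 at W4 (25% called, 14.9% higher and 10.1% lower).

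The genes higher in CD31+ cells than in the mean of the others were the fibulins Fbln2 and Fbln5 at both ages, and at W4 also Ltbp2 (log2 fold change 3.70, SE 0.89, edgeR adjusted p = 0.00236). At W4 Fbln5 read 819 to 1415 CPM in CD31+ cells (median 1185, n = 6), 634 to 990.1 in gp38+CD26+ (median 675, n = 5), 72.8 to 215 in gp38+CD26- (median 118, n = 6) and 20.3 to 81.8 in Ly51+gp38- cells (median 65.1, n = 6). It was higher in CD31+ cells than in the mean of the others at P0 (log2 fold change 3.24, SE 0.32, edgeR adjusted p = 2.14e-08) and at W4 (2.62, SE 0.22, edgeR adjusted p = 2.08e-09). Fbln2 was higher there too, by 3.59 (SE 0.47, edgeR adjusted p = 1.4e-06) and 1.87 (SE 0.66, edgeR adjusted p = 0.0343). Mfap4 was listed at 0 in all 6 CD31+ libraries at W4, where a count of 0 allows 0.223 to 0.270 CPM. Fibroblast markers summed to 0.0783 to 14.8 CPM in the same libraries.

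Between the 2 fibroblast populations, 3 genes differed at P0 (2.14% of genes called, 0.722% higher and 1.42% lower) and 6 at W4 (7.81% called, 3.32% higher and 4.49% lower). Mfap4, Mfap5 and Fbln5 were higher in gp38+CD26+ cells at both ages, with log2 fold changes at W4 of 4.41 (SE 0.95, edgeR adjusted p = 0.00634), 4.72 (SE 0.98, edgeR adjusted p = 0.00287) and 2.65 (SE 0.31, edgeR adjusted p = 3.45e-06). Mfap5 read 3644 to 6864 CPM (median 6273, n = 5) in gp38+CD26+ cells at W4 and 115.2 to 469.3 (median 224.4, n = 6) in gp38+CD26- cells. At W4 Fbn1 (1.999, SE 0.23, edgeR adjusted p = 2.22e-06) and Eln (1.99, SE 0.25, edgeR adjusted p = 8.72e-06) joined them. Ltbp2 was the 1 gene lower in gp38+CD26+ cells (-5.11, SE 1.52, edgeR adjusted p = 0.0393): it was listed at 0 in 4 of the 5 libraries and read 8.04 CPM in the fifth, against 22.6 to 88.1 CPM in gp38+CD26- cells. Calls at P0 were fragile, and leaving out a replicate number left 0 to 3 of them.

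**Figure D4:**
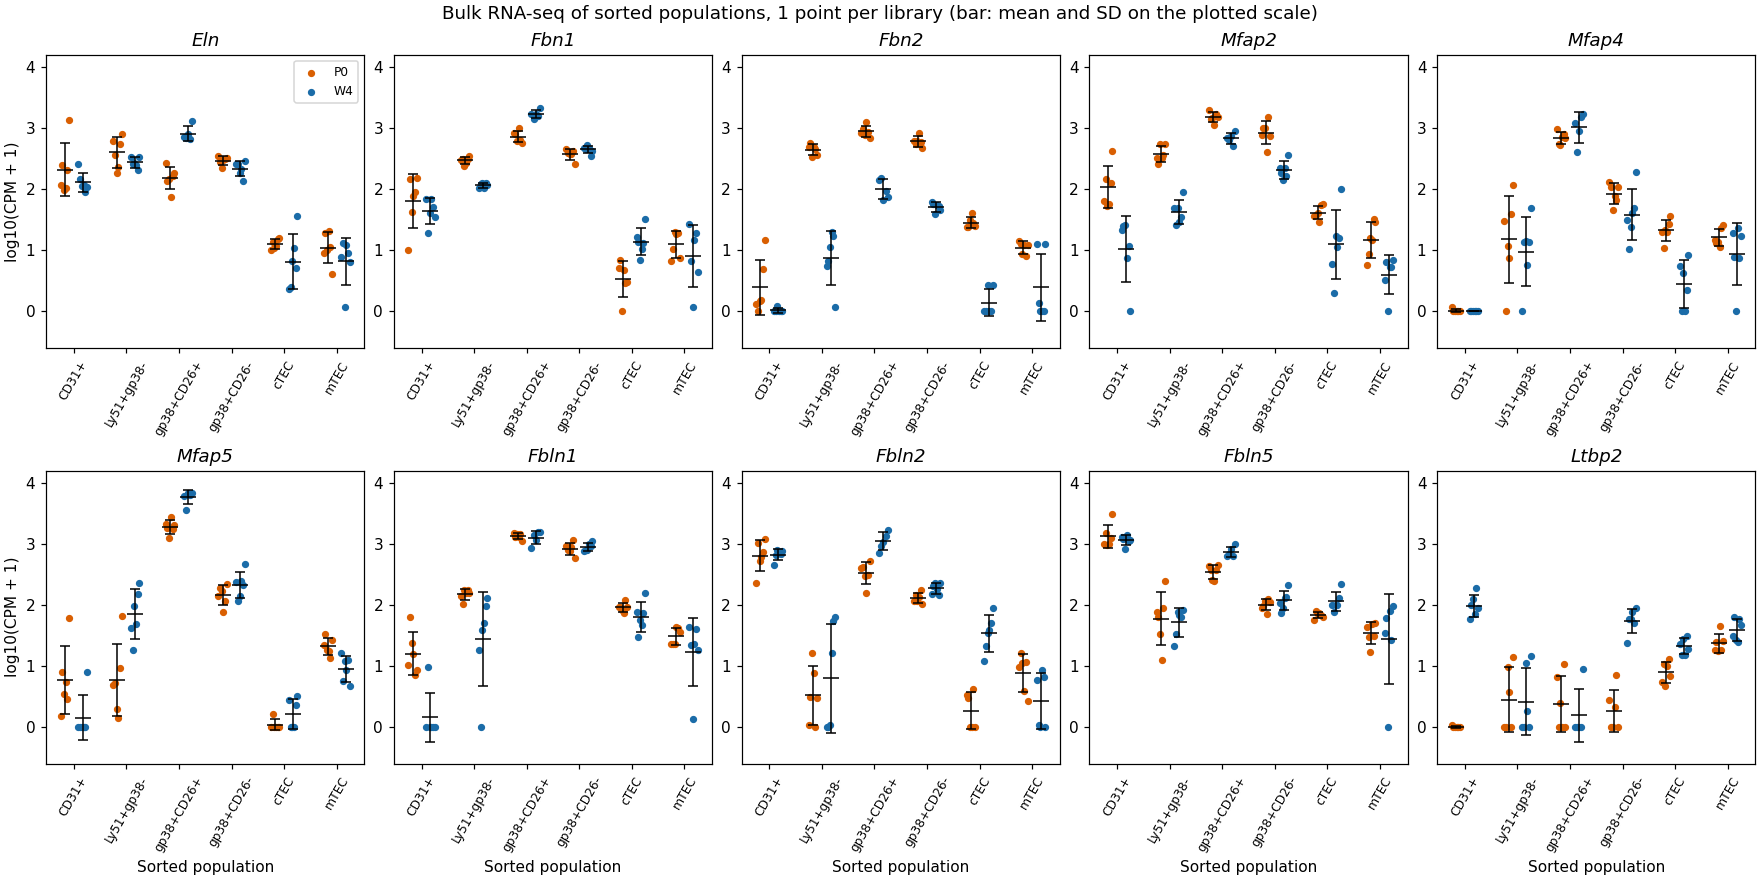
Levels of the 10 genes in bulk libraries on a log10(CPM + 1) axis, by sorted population (x axis) and age (P0 orange, W4 blue), with 1 point per library and bars for the mean and SD on that scale (6 libraries per group, 5 in gp38+CD26+ at W4). Eln at W4 lies between 658 and 1324 CPM in gp38+CD26+ cells and between 133 and 284 CPM in gp38+CD26- cells, and Fbn2 is lower at W4 than at P0 in every library of both fibroblast populations.

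Age changed 7 of the 9 tested genes in gp38+CD26+ cells (13.2% of 12433 genes called), 5 of them upward (7.27% higher) and 2 downward (5.93% lower). Eln read 73.3 to 263 CPM at P0 (262.6, 136.1, 144.05, 73.3, 161.7 and 185.9) and 704, 683, 812, 658 and 1324 CPM at W4, so the ages did not overlap (log2 fold change 2.49, SE 0.29, edgeR adjusted p = 0.000135). Mfap5 rose from 1265 to 2758 CPM (median 1919, n = 6) to 3644 to 6864 CPM (1.70, SE 0.22, edgeR adjusted p = 0.000259). Fbn1 rose by 1.31 (SE 0.18, edgeR adjusted p = 0.000355), Fbln2 by 1.84 (SE 0.28, edgeR adjusted p = 0.000946) and Fbln5 by 1.18 (SE 0.19, edgeR adjusted p = 0.00123). Fbn2 fell from 701 to 1265 CPM (median 849) to 64.6 to 149.05 CPM (median 92.9), with a log2 fold change of -3.02 (SE 0.26, edgeR adjusted p = 1.36e-05), and Mfap2 changed by -1.04 (SE 0.17, edgeR adjusted p = 0.00156). Fbln1 was not among the 7 called. It averaged 1365 CPM at P0 and 1303 CPM at W4, with overlapping libraries, so its rise in the capsular subtypes of the age series was not seen here. Within the libraries whose titles carry the prefix TXCK, whose meaning is not given, 7 genes were called, and within DFCK, where 2 libraries remained at W4, 0. The Eln change was 2.51 within TXCK and 2.38 within DFCK (edgeR adjusted p = 0.00511 and 0.118).

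The make-up of the gp38+CD26+ libraries also differed between the ages. The 4 mesothelial markers Msln, Upk3b, Lrrn4 and Upk1b, all detected, summed to 0 to 511 CPM at P0 (median 65.5) and to 691 to 6256 CPM at W4 (median 4721). The capsular fibroblast markers Pi16 and Dpp4, the latter encoding CD26 itself, summed to 376 to 779 CPM at P0 and 7594 to 14637 CPM at W4. Haemoglobin transcripts of Hba-a1 and Hbb-bs went from 0.0933 to 1.38 CPM to 824 to 2166 CPM. Pericyte markers were lower at W4, at 22.004 to 105.97 CPM against 230.4 to 443.2 CPM at P0, and epithelial markers higher, at 37.48 to 115.9 CPM against 0.692 to 25.9 CPM, and neither list overlapped between the ages. The part of these shifts in the age changes was not tested. In the single-cell age series, Mes cells at W4 read 568.1 and 552.1 CPM of Eln and 777 and 739.9 CPM of Mfap5, below CapFb2b for both genes.

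In gp38+CD26- cells 4 of 10 genes were called with age (24.3% of 12279 genes called, 12.9% higher and 11.5% lower): Ltbp2 and Fbln2 were higher at W4, and Fbn2 and Mfap2 lower. Eln read 220 to 346 CPM at P0 (median 305) and 133 to 284 at W4 (median 234), and did not pass (log2 fold change -0.30, SE 0.17, edgeR adjusted p = 0.242). Ltbp2 was listed at 0 in 3 P0 libraries and read up to 6.08 CPM in the others, against 22.6, 57.4, 58.2, 76.0, 49.3 and 88.1 CPM at W4 (5.48, SE 1.02, edgeR adjusted p = 0.00119). Fbn2 fell from 465.5 to 845.1 CPM (median 603) to 37.8 to 61.3 CPM (-3.47, SE 0.17, edgeR adjusted p = 9.43e-09) and Mfap2 changed by -1.95 (SE 0.28, edgeR adjusted p = 0.000142). Haemoglobin in these libraries went from 0 to 0.457 CPM at P0 to 20.2 to 2482 CPM at W4, and the proliferation markers Mki67 and Top2a from 24.6 to 135.3 CPM (median 87.3) to 4.97 to 25.9 CPM (median 17.5), and their part in the changes was not tested.

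In Ly51+gp38- cells 0 of 9 tested genes rose and 3 fell (11.9% of 11949 genes called, 6.44% higher and 5.45% lower). Fbn2 went from 334 to 576 CPM at P0 to 0.176 to 18.97 CPM at W4 (log2 fold change -5.45, SE 0.63, edgeR adjusted p = 7.2e-05), Mfap2 from 256 to 542 CPM to 24.4 to 88.4 CPM (-2.96, SE 0.32, edgeR adjusted p = 3.56e-05) and Fbn1 from 237 to 351 CPM to 101.8 to 126.98 CPM (-1.22, SE 0.13, edgeR adjusted p = 4.35e-05). None of these 3 genes overlapped between the ages. Eln, which fell in VSM and Pc of the age series, was not among those called. It averaged 457 CPM at P0 and 278 CPM at W4, with overlapping libraries. Over the same ages the pericyte markers Kcnj8, Rgs5, Abcc9 and Cspg4 summed to 29730 to 40560 CPM at P0 and 83939 to 107926 CPM at W4, and the smooth muscle markers to 1352 to 2452 CPM and 5456 to 7161 CPM. Proliferation markers summed to 88.997 to 174.3 CPM at P0 and 3.003 to 33.97 CPM at W4, and the haematopoietic ones, all 5 detected, to 0 to 25.7 CPM and 70.2 to 305.1 CPM, while the fibroblast markers, at 1807 to 7663 CPM and 1166 to 4261 CPM, overlapped. The medullary fibroblast markers Ccl19 and Col15a1 did not overlap, at 74.96 to 146.1 CPM at P0 and 325.8 to 563.3 CPM at W4, and haemoglobin went from a median of 0.279 to 147.5 CPM. The part of these markers in the changes was not tested.

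In CD31+ cells 2 of 8 tested genes were called (5.09% of 11333 genes called, 3.19% higher and 1.91% lower). Ltbp2 was listed at 0 in 5 P0 libraries and at 0.0821 CPM in the other, where a count of 0 allows 0.202 to 0.329 CPM, and read 57.4, 98.8, 123, 71.0, 189 and 88.1 CPM at W4 (edgeR adjusted p = 1.17e-07). With next to no reads at P0 the fitted fold has no fixed size and is not given. The rise was called within both title prefixes. The 4 pericyte markers, all detected, were higher at W4 in CD31+ cells as well, going from 47.7 to 192.5 CPM at P0 to 561 to 1784 CPM at W4. The smooth muscle markers did so too, from 0.411 to 16.8 CPM to 30.05 to 110.8 CPM, while the median of the proliferation markers went from 137.8 to 12.9 CPM. Haemoglobin went from 5.97 to 258 CPM (median 20.2) to 205.7 to 5464 CPM (median 2039), and their part in the changes was not tested. Mfap2 went from 51.2 to 426 CPM to 0 to 25.3 CPM (log2 fold change -3.22, SE 0.86, edgeR adjusted p = 0.0456), and leaving out 1 library at a time left 1 to 3 of the genes called. CD31+ P0 replicate 6 read 1368 CPM of Eln against 94.6 to 249 in the other 5, and the fall of Eln to W4 did not pass (-1.28, SE 0.61).

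Epithelial populations were compared in the same way. In cTEC 6 of 9 tested genes were called (22.3% of 13037 genes called, 12.3% higher and 9.99% lower): Fbn1, Fbln2, Fbln5 and Ltbp2 were higher at W4 and Fbn2 and Mfap4 lower. Fbln5 read 55.1 to 79.7 CPM at P0 and 77.1 to 221 CPM at W4 (log2 fold change 0.88, SE 0.21, edgeR adjusted p = 0.00829), and Fbn2 fell from 23.0 to 39.8 CPM to 0 to 1.65 CPM (edgeR adjusted p = 0.000987). Markers of other cells were higher in the cTEC libraries at W4 than at P0, without overlap: those of fibroblasts went from 161.5 to 359.7 CPM at P0 to 429 to 1986 CPM at W4, of mesothelium from 0.118 to 5.43 CPM to 16.6 to 2683 CPM, of haematopoietic cells from 24.7 to 48.9 CPM to 367.6 to 1677 CPM, and haemoglobin from 0 to 0.646 CPM to 21.4 to 977.6 CPM. Endothelial markers, of the cells in which Fbln2 and Fbln5 were high, went from 0 to 0.969 CPM to 11.5 to 84.7 CPM, pericyte markers from 34.5 to 103.6 CPM to 135.6 to 659.4 CPM, smooth muscle markers from 50.7 to 105.997 CPM to 140.5 to 248.6 CPM and medullary fibroblast markers from 1.38 to 4.76 CPM to 12.5157 to 29.9 CPM. At P0 Pdgfra, Upk3b, Kcnj8, Cdh5, Kdr, Emcn and Tie1 were at 0, and the part of these markers in the changes was not tested. In mTEC 0 of 10 genes were called (5.99% of 15883 genes called, 3.64% higher and 2.35% lower), and DESeq2 called 2. An unadjusted p under 0.05 was found for 3 of the 10, and for 2868 of the 15883 genes. Ltbp2 in mTEC read 16.6 to 43.6 CPM at P0 and 24.2 to 63.0 CPM at W4. In the W4 subsets mTEClo and mTEChi, Fbn1 read medians of 42.5 and 14.7 CPM and Fbln1 50.7 and 7.86 CPM.

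Whether the age change differed between the 4 nonepithelial populations was tested with the interaction of age and population. It did for 5 of the 10 genes (13.3% of 15704 genes called): Eln (edgeR adjusted p = 0.000149), Fbn1 (0.000224), Ltbp2 (0.00257), Mfap5 (0.0102) and Fbln1 (0.0439). Between the 2 fibroblast populations the interaction was called for Eln alone of the 10 genes (2.12% of genes called): its change was larger in gp38+CD26+ than in gp38+CD26- cells by 2.82 on the log2 scale (SE 0.62, edgeR adjusted p = 0.00668). For Fbn2, which fell in the 3 populations where it could be tested, the interaction did not pass (edgeR adjusted p = 0.0692). Nor did it for Mfap2 (edgeR adjusted p = 0.0797), which fell in all 4, though its call in CD31+ cells was not made within either title prefix.

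Of the 22 assembly partners, 9 changed with age in gp38+CD26+ cells (13.2% of all genes called), 7 of them upward (7.27% higher), among them Efemp1 (2.496, SE 0.27), Thsd4, which encodes the microfibril protein ADAMTSL6 (1.96, SE 0.41), and Ltbp1 (1.95, SE 0.29). In gp38+CD26- cells 7 of 21 changed, not far from the 24.3% called over all genes, with the largest change in Ltbp1 (4.14, SE 0.19, edgeR adjusted p = 7.23e-09) and Fbln7 (3.98, SE 0.85). In Ly51+gp38- cells 4 of 19 were called (11.9% of all genes), among them Ltbp1, which rose (3.34, SE 0.34). CD31+ cells had Ltbp4 as the 1 partner of 12 called (3.25, SE 0.35, edgeR adjusted p = 8.25e-05), where 5.09% of all genes were. At W4, 6 of the 22 differed between the fibroblast populations (7.81% of all genes called). The cross-linking enzymes Lox (2.65, SE 0.60, edgeR adjusted p = 0.00622) and Loxl1 (2.55, SE 0.72, edgeR adjusted p = 0.0298) were higher in gp38+CD26+ than in gp38+CD26- cells and Ltbp1 was lower (-3.82, SE 0.85, edgeR adjusted p = 0.00549).

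Genotype was compared in the newborn libraries, 3 labelled Tbx1+/- Crkl+/- against 3 WT littermates. Over all labelled cells, Crkl read 22.99, 25.1 and 18.4 CPM in the WT libraries and 24.1, 23.6 and 26.9 CPM in those labelled Tbx1+/- Crkl+/-, which did not show the labelled difference, and Tbx1 had 13, 6 and 19 UMIs against 0, 0 and 8. The assay reads 3' ends, and tags outside the altered part of an allele do not check it. In the 12 subtypes with at least 20 cells in every library, 102 pairs of a gene and a subtype were tested. Of these 0 were called by edgeR and 0 by DESeq2 (0.037% of 73054 pairs of all genes called by edgeR), while 12 had an unadjusted p under 0.05. Over all genes the share with such a p ran from 223 of 6751 in EnC to 390 of 3386 in CapFb4. In the summed fibroblasts 0 of 10 genes were called by either tool (0.0% of 11897 genes called by edgeR). An unadjusted p under 0.05 was found for 2 of the 10, and for 1007 of the 11897 genes. Fbln5 read 83.1, 89.6 and 114 CPM in WT and 68.0, 79.8 and 40.8 in Tbx1+/- Crkl+/- fibroblasts (log2 fold change -0.65, SE 0.25, edgeR adjusted p = 0.519). Mfap5 read 631, 665 and 1327 CPM in WT and 460, 721 and 470 in the mutant libraries (-0.73, SE 0.32, edgeR adjusted p = 0.568). Eln read 265, 257 and 269 against 138.5, 223.6 and 234.8 CPM (-0.44, SE 0.23, edgeR adjusted p = 0.614), and Fbn2 607, 709 and 469 against 714, 654 and 532 CPM. A p that misses the threshold here does not show that the genotypes are alike. Median depth followed genotype, at 2577, 3631 and 4686 UMIs per cell in WT and 2551, 2391 and 2506 in the mutant libraries. The summed fibroblasts also mix subtypes, and the part of depth or make-up in these levels was not tested.

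**Figure D5:**
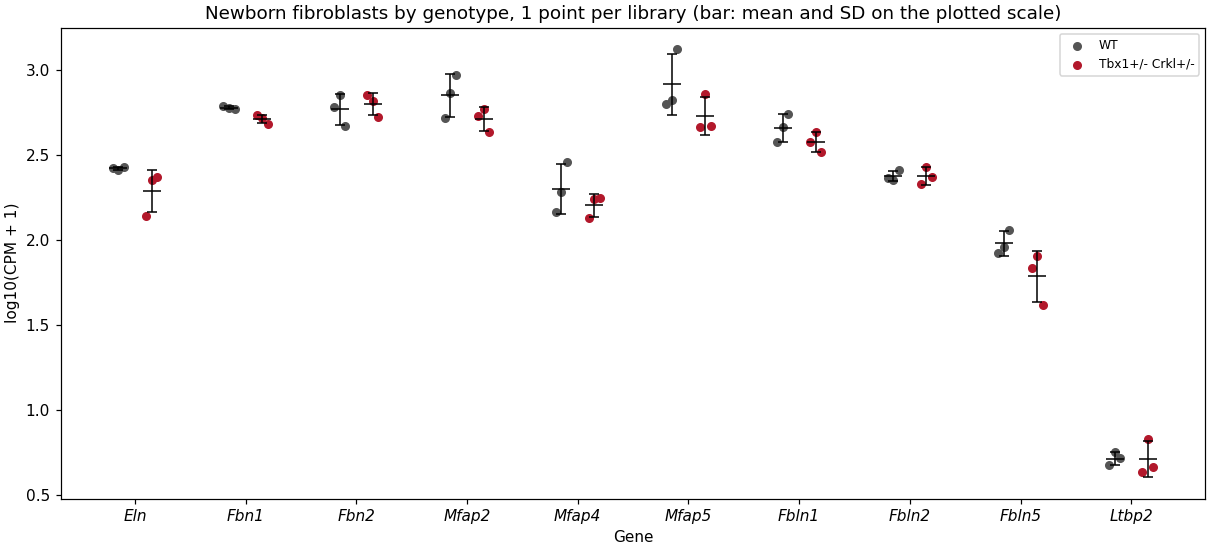
Levels of the 10 genes in the summed fibroblasts of the newborn libraries on a log10(CPM + 1) axis, with 1 point per library, WT grey and Tbx1+/- Crkl+/- red, and bars for the mean and SD on that scale. The red points of Fbln5 lie at 40.8 to 79.8 CPM and the grey ones at 83.1 to 114 CPM, and no gene was called.

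CapFb2a, the fibroblast subtype richest in Eln, was too small to be tested for genotype, with 19, 19 and 35 cells in WT and 0, 17 and 23 in Tbx1+/- Crkl+/- libraries. Its Eln level was 2856, 1606 and 3387 CPM in WT and 425 and 380 CPM in the 2 mutant libraries that held such cells, and its Fbln5 level 552, 491 and 793 against 173.2 and 69.1 CPM. In VSM, with 43 to 249 cells per library, Eln read 869, 1301 and 761 CPM in WT and 91.5, 1615 and 375 in the mutant libraries, which overlapped. Epithelial cells of the same libraries, which are not known as a source of elastin, held 20.5 to 44.96 CPM of Eln and 17.0 to 25.7 CPM of Mfap4, so levels of that order in any newborn subtype were not read as expression. Ltbp2 stood at 12.8 to 24.9 CPM in these epithelial cells and at 3.32 to 5.81 CPM in the summed fibroblasts of either genotype, and mTEC also held it in bulk.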

How the data were processed

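Thymic cells of mice were profiled by 10x Chromium 3' single-cell RNA-seq, and sorted populations by ultra-low input bulk RNA-seq. The single-cell counts were deposited as whole-number UMI counts per gene and cell, which the authors made with Cell Ranger 3.1.0, with their subtype labels, and the bulk counts as whole-number counts per gene. The authors kept singlets by DoubletFinder with over 1000 detected genes and under 5% mitochondrial UMIs and dropped CD45-expressing and contaminant clusters; the deposited newborn cells held as few as 876 genes. The submitters' processing notes also list STAR 2.5.3a, HTSeq and the builds mm10 and GRCh38 without tying them to files. Strand use is not given in the sources used here.

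UMIs were summed per library and subtype. Tests used edgeR 4.0.16 (filterByExpr, TMM, glmQLFit and glmQLFTest) in R 4.3.3 on subtypes with at least 20 cells in each library, with Benjamini-Hochberg adjustment over all genes and a threshold of 0.05. DESeq2 1.42.0 was an alternative, with other filters, scaling, libraries left out, title prefixes and replicate blocks. In bulk, 98 rows that name no gene (spike-ins and unassigned reads, 7.81% to 16.6% of counts) were left out of library sizes, as was 1 library under 1000000 gene counts. Groups came from the labels, and 37607 of 39179 gene IDs had a symbol. No pair of libraries agreed within counting noise (lowest dispersion index 2.91 over 9 single-cell pairs and 24.2 over 210 bulk pairs, where 1 is expected). Limits beside counts of 0 are 3 counts over the total and cover counting error only. The 10 genes, the 22 partners and the marker lists were chosen with earlier results of these data known. The genes named are these 10, partners of the list of 22 and genes most like each of the 10. In bulk, partners were named from the up to 5 with the largest change among those called in a comparison. In the single-cell data the partners named were not chosen by size of change. For most of the 10 genes only the closest match is named.

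The procedure was tested on simulated data with 200 changed genes. At 2-fold and 4-fold change, it recovered 11% and 31% in the gp38+CD26+ age comparison (12433 genes), 62% and 84% in CapFb1b at W4 against P0 (13124 genes) and 42% and 94% in the newborn fibroblasts (11897 genes). Over all comparisons the median log2 fold change of all genes lay within 0.112 of 0.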

Additional observations from a re-analysis of the deposited data

Results flagged for a closer look

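Among 59 groups of 5 or 6 bulk libraries with a median of at least 20 CPM, a limit set after seeing the data, 9 held a library far from the others by Dixon's criterion, where chance gives about 1 in 20. CD31+ P0 replicate 6 was one for Eln (1368 CPM, group median 163.3), Mfap2 (426.0 CPM, median 93.96) and Fbln5 (3079 CPM, median 1142), and replicate 6 was also the far library for Fbln5 in Ly51+gp38- cells at P0 (244 CPM, median 69.4). At W4 replicate 6 stood apart for Eln in gp38+CD26+ (1324 CPM, median 704) and for Mfap2 (360.3 CPM, median 201.0) and Mfap4 (190.8 CPM, median 35.4) in gp38+CD26- cells. The others were CD31+ W4 replicate 1 for Eln (253.7 CPM, median 112.9) and gp38+CD26+ W4 replicate 3 for Mfap5 (3644 CPM, median 6273).

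The age change differed between the nonepithelial populations, by the interaction of age and population in edgeR, for Eln (adjusted p = 0.000149), Fbn1 (adjusted p = 0.000224), Ltbp2 (adjusted p = 0.00257), Mfap5 (adjusted p = 0.0102) and Fbln1 (adjusted p = 0.0439). For Eln it also differed between gp38+CD26+ and gp38+CD26- cells, by 2.82 on the log2 scale.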

How the results depend on the processing

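Of single genes in single comparisons under the alternatives, 6733 values kept their side of the threshold and, where called, their direction. Of the others, 337 lost a call and 212 gained one. A further 20 changed sign with a call in the report, under the alternative or in both. Changes of sign without any call are among the 6733. Of 10 listed genes in bulk, 1 was called with age in CD31+ cells (2 in the report) without the filter on low counts, within TXCK and within DFCK libraries, and 1 to 3 with 1 library left out. In gp38+CD26+ cells 0 were called within DFCK (3 against 2 libraries), 3 with the shallow library kept and 7 to 8 with 1 left out, in cTEC 3 within TXCK, 1 within DFCK and 4 to 6 with 1 left out, and in mTEC 2 by DESeq2. With a replicate number left out, the calls ranged from 0 to 3 between gp38+CD26+ and gp38+CD26- at P0, 4 to 8 for gp38+CD26- at W4, 3 to 5 for age by population and 1 to 2 for its fibroblast contrast. In the single-cell data 27.6% to 67.6% of the 170 pairs were called for P0 against E16.5 with 1 library left out, with 27.6% and 30% when that was an E16.5 library (50% in the report), and 0 to 1 pair for genotype.

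The log2 changes that turned sign with a call in either fit did so with 1 library left out, and their ranges over the libraries left out follow. From P0 to W4, Eln ranged from -0.91 to 1.17 in CapFb1a and from -1.14 to 1.73 in Pr, Mfap4 from -1.90 to 0.0488 in CapFb1a, from -0.73 to 0.88 in CapFb1b, from -0.71 to 0.87 in CapFb1c and from -5.03 to 0.57 in EnVL, Mfap5 from -3.60 to 1.35 in EnA and Fbln5 from -1.05 to 0.55 in Pc, each highest without P0 replicate 1. From E16.5 to P0, Mfap4 ranged from -1.11 to 0.84 in CapFb1a, from -0.94 to 0.64 in CapFb1b, from -0.91 to 0.67 in CapFb1c, from -0.37 to 0.74 in CapFb2b and from -0.56 to 5.11 in EnVL, and Mfap5 from -0.32 to 4.65 in EnA, each lowest without P0 replicate 1. Eln from P0 to W4 ranged from -0.49 to 1.28 in MedFb1a and from -0.35 to 0.78 in MedFb1b, lowest without P0 replicate 2, and from -0.0084 to 1.03 in MedFb2b and Fbln1 from -1.55 to 1.47 in VSM, lowest without W4 replicate 2. In bulk W4 Ly51+gp38- cells Fbln1 ranged from -1.62 to 1.54, highest without replicate 2, and Mfap5 from -0.51 to 1.64, highest without replicate 6. The cause was not tested.

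Same-numbered libraries did not deviate together (correlations of 0.31, -0.05 and -0.70 in the newborn data and -0.16, 0.08 and -0.37 in the age series), so the numbers were not taken to pair them. Between other numbers in the newborn data, correlations ran from -0.74 (mutant replicate 2 with WT replicate 1) to 0.80 (mutant replicate 2 with WT replicate 3). Whether libraries of other numbers were paired was not tested. With the replicate number as a block, 74.1% of pairs were called for W4 against P0, 55.9% for P0 against E16.5, 94.1% over all ages and 0 for genotype in subtypes and in the summed fibroblasts. Bulk libraries were not checked for such pairing, and their tests between populations used no term for replicate number. Depth limits Ltbp2 most.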
